A study of Rattus norvegicus with 4 samples.

Results

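The genes described here are those of cholesterol synthesis, sensing, uptake, storage and efflux: 30 genes, taken by symbol from the 17899 rat genes of the deposited expression table. All 30 were found, and all 30 reached 1 TPM in at least 2 libraries and were tested. TPM, a transcript abundance unit, is a share of each library's transcripts corrected for gene length, so levels of different genes can be set side by side. Of the 30 genes, 18 encode enzymes of synthesis and 12 act in regulation, transport, storage or efflux. The list does not hold every gene of the pathway; others are not analysed here.

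Cells make cholesterol from acetyl-CoA through mevalonate and squalene, or take it up from lipoproteins. Sterol regulatory element binding proteins (SREBPs), released from the endoplasmic reticulum when membrane cholesterol is low, switch on the synthesis genes, and oxysterols switch on efflux genes through the liver X receptors (LXRs). In macrophages, surplus cholesterol is stored as esters in lipid droplets or exported to lipoproteins by ABC transporters.

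The 4 libraries hold messenger RNA of whole synovium, the joint lining, of osteoarthritic rats. Human AdMSCs had been given in AdMSC 1 and human SyMSCs in SyMSC 1, names that the labels do not spell out (commonly, mesenchymal stem cells of fat and of synovium). Phosphate-buffered saline (PBS) had been given in PBS 1 and PBS 2. Synovium was collected 1 day after cell injection, with no time stated for PBS; the labels used here give no strain, age or sex and do not say how osteoarthritis arose. The titles join AdMSC 1 with PBS 1 (the Ad arm) and SyMSC 1 with PBS 2 (the Sy arm), and call the PBS libraries "mix". Where an arm is called injected, or arms are said to overlap or not, the injected and the PBS libraries are meant. Whether each library is a different animal is not stated, and p-values therefore reflect only library-to-library spread, which may be technical. TPM keeps no read depth, so no counting interval can be given. In bulk tissue, fewer cells of a type and less RNA per cell cannot be told apart.

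The make-up of the libraries differed between injected and PBS libraries. The marker counts are read beside all genes tested, of which 23.7% were called higher and 24.7% lower in the injected libraries. Of 7 macrophage and leukocyte markers, 6 rose in the injected libraries, with a summed level of 21975 to 29910 TPM against 8972 to 10138 TPM with PBS. Of 5 neutrophil markers, 4 rose (2057 to 3519 against 81.3 to 223 TPM), and 4 of 4 proliferation genes rose (152 to 178 against 34.8 to 54.7 TPM). All 6 fibroblast markers fell (8886 to 12468 against 27306 to 34255 TPM), as did all 4 endothelial markers (72.7 to 91.7 against 260 to 298 TPM). Among 4 lining fibroblast genes 2 fell, and the lubricin gene Prg4, which defines that layer, lay between 2448 and 4192 TPM in all libraries. The sum of the list was lowest in SyMSC 1 (2516 TPM), against 4263 TPM in AdMSC 1, 4142 TPM in PBS 1 and 3985 TPM in PBS 2. Adipocyte markers summed to 222 and 261 TPM in AdMSC 1 and SyMSC 1, 522 TPM in PBS 1 and 1468 TPM in PBS 2. Skeletal muscle markers summed to 112 to 156 TPM against 584 to 1692 TPM, with 2 of 5 called lower (4 under either other scaling). Blood markers summed to 5306 TPM in AdMSC 1, 11218 TPM in SyMSC 1, 21673 TPM in PBS 1 and 7662 TPM in PBS 2. The libraries of each arm thus differed widely in blood transcript, and 0 of 3 blood markers were called by limma (also 0 at an unadjusted p under 0.05). No marker of these lists was at 0 in any library. The neutrophil count fell to 2 without AdMSC 1 and 1 without SyMSC 1. The adipocyte list had 1 fall, 4 without PBS 1, and 0 without AdMSC 1 or SyMSC 1; that of muscle had 4 without PBS 1 or PBS 2 and 1 without AdMSC 1 or SyMSC 1. Lining fibroblast genes fell in 4 cases without AdMSC 1. The part of these shifts in the results below was not tested unless stated.

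Taking the injected libraries together (n = 2) against PBS (n = 2), 12 of the 30 genes rose, 3 fell and 15 did not pass limma's test at an adjusted p of 0.05. The largest rise was that of the cholesterol esterifying enzyme gene Soat1, about 8-fold, and the largest fall was that of the lipoprotein receptor gene Scarb1, to 0.347 of its PBS level in mean TPM. The export genes Abca1 and Abcg1 rose, as did Srebf2 and 7 of the 18 synthesis genes; of these 10, all but Acat2, Mvd and Sqle rose by less than 2-fold in mean TPM. Over all 13371 genes tested, 48.4% were called, 23.7% higher and 24.7% lower. The members' 15 calls of 30 are near that share and do not set the list apart; the 12 rises are 40.0% of the members. The median log2 change was 0.34 over the members (0.22 without AdMSC 1) and 0.00 over all genes tested. Since the injected arm pools AdMSC 1 with SyMSC 1, its SD includes any gap between cell sources. Without AdMSC 1 the count of rises was 7, and without PBS 2 it was 8.

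**Figure D1:**
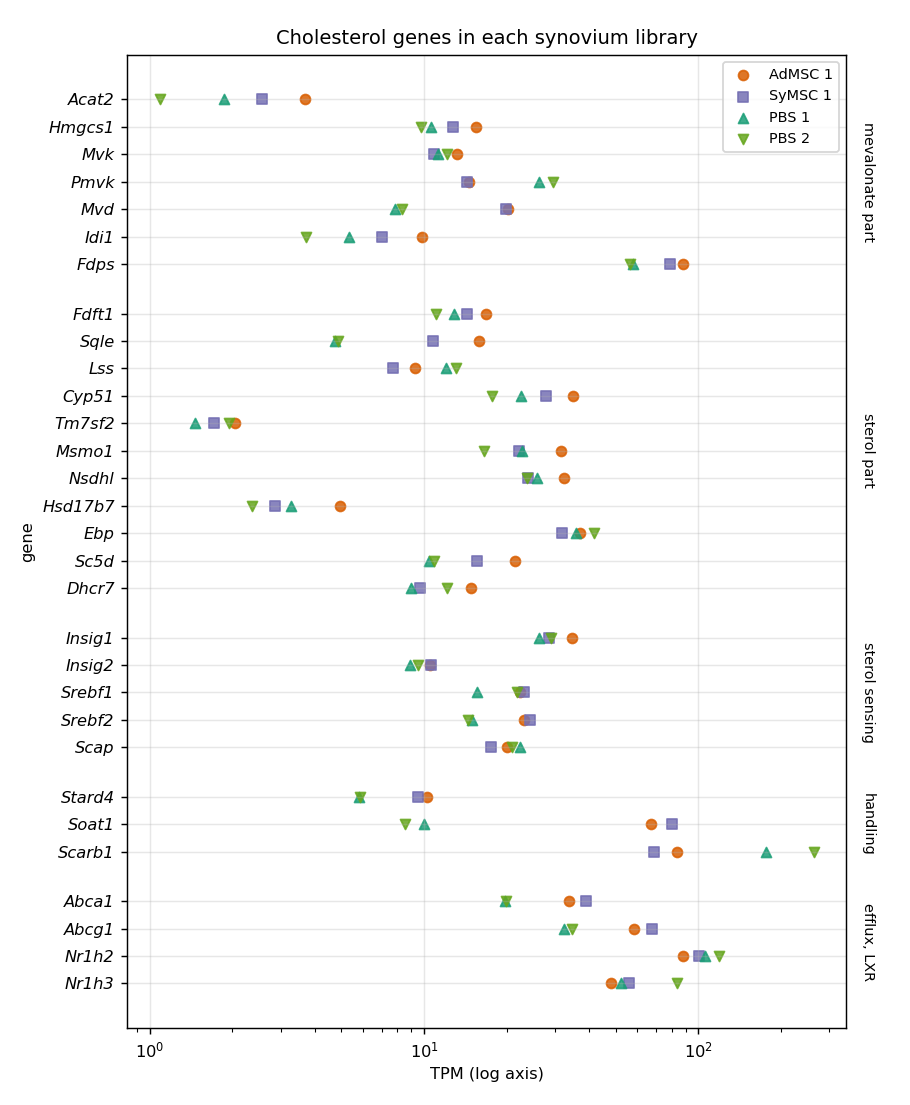
TPM of each of the 30 genes (rows, grouped by role) in the 4 libraries on a log axis, 1 symbol per library. Both injected libraries lay above both PBS libraries for 16 genes and below them for 5, with Soat1 and Scarb1 the farthest apart.

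Levels spanned a wide range. Scarb1 had the highest mean over the 4 libraries (148 TPM), followed by the LXR beta gene Nr1h2 (103 TPM) and the farnesyl diphosphate synthase gene Fdps (70.4 TPM). The sterol reductase gene Tm7sf2 (1.79 TPM) and the thiolase gene Acat2 (2.30 TPM) were lowest. In 16 genes both injected libraries exceeded both PBS libraries, against 39.5% of all genes tested. In 5 genes both lay below both PBS libraries, against 39.4% of all genes, and in 9 genes the arms overlapped. Over the 18 synthesis genes the summed level was 387 TPM in AdMSC 1 and 315 TPM in SyMSC 1, beside 282 TPM in PBS 1 and 277 TPM in PBS 2. In unscaled TPM the synthesis sum was thus highest in AdMSC 1, and SyMSC 1 lay nearer to the PBS libraries than to AdMSC 1. The sum was not computed under the other scalings, so these distances hold for TPM only. Over all genes tested, the median log2 ratio of SyMSC 1 over AdMSC 1 was -0.09.

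The early, mevalonate part of the pathway, up to farnesyl diphosphate, is represented by 7 genes, of which 4 rose, 1 fell and 2 did not pass. Calls made up 71.4% of these genes, against 48.4% of all genes tested. Mvd encodes mevalonate diphosphate decarboxylase, which makes isopentenyl diphosphate. It stood at 20.2 TPM in AdMSC 1 and 19.96 in SyMSC 1, against 7.81 in PBS 1 and 8.33 in PBS 2. The injected libraries were close to each other and both well above both PBS libraries (log2 change 1.22, SE 0.14, limma adjusted p = 0.00119). Fdps, whose product farnesyl diphosphate feeds both sterols and protein prenylation, stood at 87.8 and 79.2 TPM in AdMSC 1 and SyMSC 1 and at 57.9 and 56.5 TPM in PBS 1 and PBS 2. It was the most abundant synthesis gene in every library, and the arms did not overlap (0.54, SE 0.12, limma adjusted p = 0.0141). Idi1, which encodes the isomerase of isopentenyl diphosphate, stood at 9.87, 7.0, 5.34 and 3.71 TPM in AdMSC 1, SyMSC 1, PBS 1 and PBS 2 (0.77, SE 0.24, limma adjusted p = 0.0364). Acat2, the cytosolic thiolase that joins acetyl-CoA units, stood at 3.69, 2.56, 1.86 and 1.09 TPM in the same order (0.74, SE 0.24, limma adjusted p = 0.0469). In both genes AdMSC 1 was highest and PBS 2 lowest. Acat2 lies near the filter and has a close copy, Acat2l1, in the table, and the Idi1 locus overlaps Wdr37, so both values are uncertain.

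Pmvk, the phosphomevalonate kinase that acts just before Mvd, went the other way. It stood at 14.6 TPM in AdMSC 1 and 14.4 TPM in SyMSC 1, against 26.2 TPM in PBS 1 and 29.4 TPM in PBS 2. The injected libraries were nearly equal and both below both PBS libraries (ratio of means 0.521; log2 change -0.89, SE 0.13, limma adjusted p = 0.00303). Mvk, the kinase of the step before, did not pass and its arms overlapped (13.2, 10.8, 11.2 and 12.1 TPM in AdMSC 1, SyMSC 1, PBS 1 and PBS 2; 0.04, SE 0.16, limma adjusted p = 0.868). Hmgcs1, which makes the precursor of mevalonate, stood at 15.5, 12.8, 10.6 and 9.77 TPM in that order. Its arms did not overlap, but it did not pass (0.43, SE 0.16, limma adjusted p = 0.0631). Under median-ratio scaling, limma called Hmgcs1 (adjusted p = 0.0328).

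Among these genes the limma calls of Mvd and Pmvk held with each library left out in turn. That of Fdps ended without PBS 1 (adjusted p = 0.0667) or PBS 2 (0.0842). That of Idi1 ended without AdMSC 1 (0.161), without PBS 2 (0.144) and with no filter on low values (0.073). That of Acat2 ended without AdMSC 1 (0.211), SyMSC 1 (0.0596) or PBS 2 (0.219), under upper-quartile scaling (0.0525), with a pseudocount of 0.1 (0.0559) and with no filter (0.084).

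The promoter of Mvd is shown because it was the gene with the largest change in the mevalonate part. It is the RefSeq promoter of build GRCr8 at chr19:67414925-67415224, minus strand, from 250 bases before to 50 bases after the annotated start. Capitals mark the box CCAAT, the binding letters of the factor NF-Y, which is known to act beside SREBPs, or its reverse complement.
Mvd: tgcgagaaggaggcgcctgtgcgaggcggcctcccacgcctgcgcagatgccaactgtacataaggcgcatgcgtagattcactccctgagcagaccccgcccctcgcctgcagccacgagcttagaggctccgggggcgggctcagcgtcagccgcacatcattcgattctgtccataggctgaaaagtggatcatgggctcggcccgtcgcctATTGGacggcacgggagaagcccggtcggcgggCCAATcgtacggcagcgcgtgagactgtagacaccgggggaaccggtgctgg
Mvd held this box 2 times, with leftmost bases at -35 and -2 from the start.

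The later part, from squalene to cholesterol, is represented by 11 genes, of which 3 rose, 1 fell and 7 did not pass. Calls made up 36.4% of these genes, against 48.4% of all genes tested. Sqle encodes squalene epoxidase, a rate-controlling step of this part. It stood at 15.8 TPM in AdMSC 1 and 10.8 TPM in SyMSC 1, against 4.72 TPM in PBS 1 and 4.87 TPM in PBS 2. Both injected libraries were at more than 2 times either PBS library, AdMSC 1 above SyMSC 1 (log2 change 1.28, SE 0.21, limma adjusted p = 0.00396). Sc5d, a sterol desaturase, stood at 21.5, 15.6, 10.4 and 10.9 TPM in AdMSC 1, SyMSC 1, PBS 1 and PBS 2 (0.73, SE 0.18, limma adjusted p = 0.0183). Cyp51, the lanosterol demethylase, stood at 35.04, 27.8, 22.6 and 17.7 TPM in that order (0.61, SE 0.18, limma adjusted p = 0.0327). In both, the injected libraries lay above the PBS libraries and AdMSC 1 was highest.

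Lss, the cyclase that makes lanosterol from the product of Sqle, fell. Its level was 9.24 TPM in AdMSC 1 and 7.71 TPM in SyMSC 1, against 12.03 TPM in PBS 1 and 13.03 TPM in PBS 2, with no overlap (log2 change -0.52, SE 0.16, limma adjusted p = 0.0361). Fdft1, which makes squalene, stood at 16.9, 14.3, 12.9 and 11.1 TPM in AdMSC 1, SyMSC 1, PBS 1 and PBS 2 and was not called (0.35, SE 0.16, limma adjusted p = 0.109), although its arms did not overlap. The other 6 genes that did not pass had arms that overlapped. Their log2 changes were 0.43 for the methylsterol oxidase gene Msmo1, 0.34 for Hsd17b7, 0.18 for Dhcr7, 0.17 for Nsdhl, 0.09 for Tm7sf2 and -0.16 for Ebp. Nsdhl and Hsd17b7 act in the removal of sterol methyl groups, Ebp is a sterol isomerase, and Dhcr7 is a sterol reductase of the last steps. Msmo1 stood at 31.7 TPM in AdMSC 1 and 22.2 in SyMSC 1, against 22.7 in PBS 1 and 16.6 in PBS 2, so SyMSC 1 and PBS 1 were alike in level. With a block for the title arm, limma called Msmo1 (adjusted p = 0.0362 against 0.158 without the block).

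The call of Sqle held with each library left out. That of Sc5d ended without AdMSC 1 (limma adjusted p = 0.0663) or PBS 1 (0.0546). That of Cyp51 ended without AdMSC 1 (0.124), without PBS 2 (0.157) and with no filter on low values (0.067). That of Lss ended without SyMSC 1 (0.141), PBS 1 (0.0851) or PBS 2 (0.154), with no filter (0.0556) and with the title arm as a block (0.0531). Over the whole synthesis list, 7 genes rose and 2 fell; the rises numbered 3 without AdMSC 1, 3 without PBS 2 and 4 with no filter on low values, and the falls 1 without SyMSC 1, PBS 1 or PBS 2. The median log2 change of the 18 genes was 0.39, and 0.21 without AdMSC 1. In TPM the rises and the falls alike stood beside higher leukocyte and proliferation markers and lower fibroblast and endothelial markers. The part of these marker shifts was not tested.

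**Figure D2:**
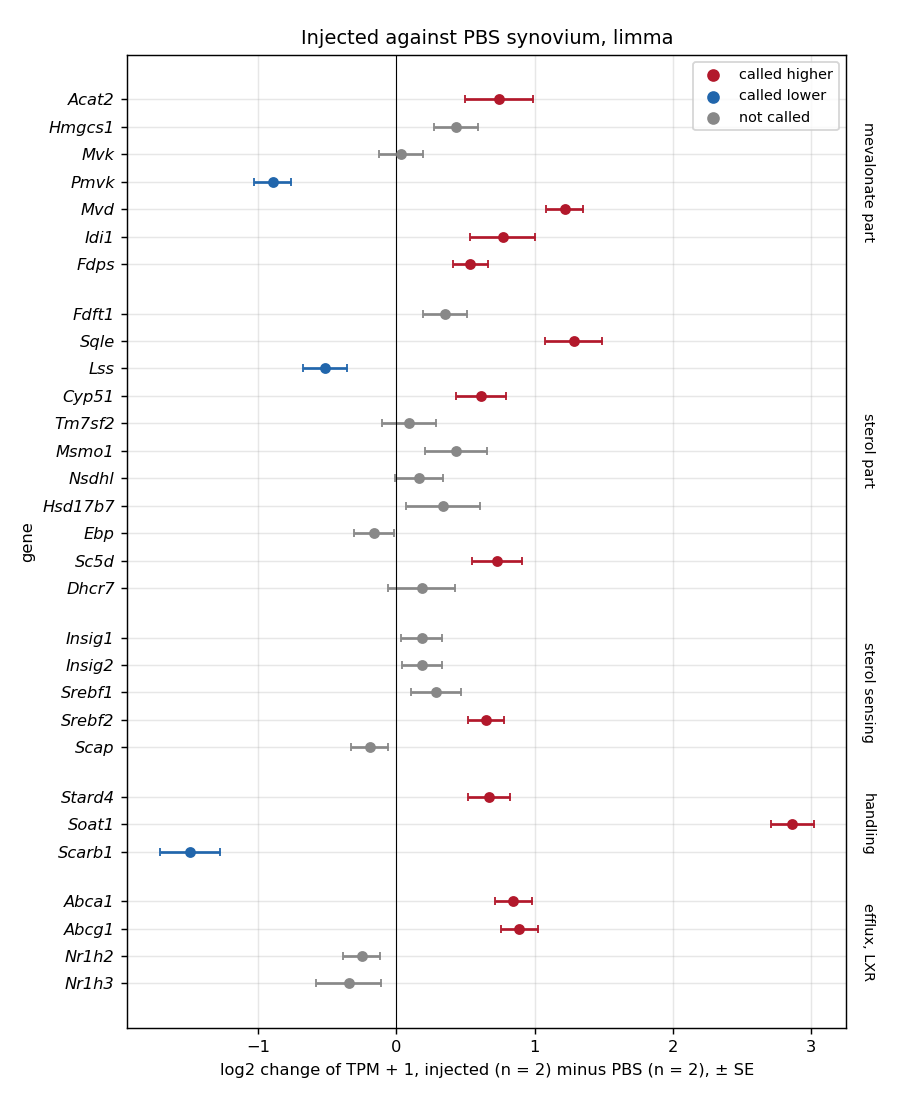
log2 change of TPM + 1 for each gene, injected (n = 2) minus PBS (n = 2), with its standard error from limma; red points were called higher, blue points lower and grey points were not called. Soat1 stands at 2.87 and Scarb1 at -1.49, while the synthesis genes lie between -0.89 and 1.28.

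Sterol sensing is represented by 5 genes, of which Srebf2 rose and 4 did not pass. Srebf2 encodes SREBP-2, the family member that acts mainly on cholesterol synthesis genes. It stood at 23.1 TPM in AdMSC 1 and 24.3 TPM in SyMSC 1, against 14.9 TPM in PBS 1 and 14.5 TPM in PBS 2. The injected libraries were close to each other, as were the PBS libraries, and injected and PBS levels did not overlap (log2 change 0.65, SE 0.13, limma adjusted p = 0.00808). The call held with each library left out. Srebf1, whose SREBP-1 products act mainly on fatty acid synthesis, stood at 22.5, 23.1, 15.7 and 21.8 TPM in AdMSC 1, SyMSC 1, PBS 1 and PBS 2. PBS 2 was close to the injected libraries and PBS 1 alone was low, and the gene did not pass (0.29, SE 0.18, limma adjusted p = 0.229). The Srebf1 locus overlaps Rai1, so its value is uncertain.

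The proteins of Insig1 and Insig2 hold the SREBP carrier in the endoplasmic reticulum, and Insig1 is itself a known SREBP target. Insig1 stood at 34.7 TPM in AdMSC 1 and 28.5 in SyMSC 1, against 26.2 in PBS 1 and 28.99 in PBS 2. AdMSC 1 alone was high, SyMSC 1 lay between the PBS libraries, and the gene did not pass (0.18, SE 0.15, limma adjusted p = 0.344). Insig2 ranged from 8.88 TPM in PBS 1 to 10.7 TPM in SyMSC 1 (0.19, SE 0.14, limma adjusted p = 0.319). Scap, the carrier itself, was lower in both injected libraries (20.05 and 17.6 TPM) than in both PBS libraries (22.3 and 21.01 TPM) and did not pass (-0.19, SE 0.14, limma adjusted p = 0.278).

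The promoters of Srebf2 and Msmo1 are shown because they were the ones that held the first 8 letters of the sterol regulatory element. The element was searched as TCACNCCAC on both strands in the RefSeq promoters of 24 members; no promoter sequence was used for Pmvk, Fdft1, Sqle, Stard4, Scarb1 and Abcg1. It was found in 0 of 24, against 1.12% of 10546 promoters of tested genes, which says only that these letters are not in these windows. The shorter TCACNCCA, chosen after that result, was found in 2 of 24, against 3.49% of promoters of tested genes. Capitals mark the match TCACCCCA in Srebf2 (chr7:115543057-115543356, plus strand) and the match TCACTCCA in Msmo1 (chr16:29746863-29747162, plus strand), together with each CCAAT box on either strand.
Srebf2: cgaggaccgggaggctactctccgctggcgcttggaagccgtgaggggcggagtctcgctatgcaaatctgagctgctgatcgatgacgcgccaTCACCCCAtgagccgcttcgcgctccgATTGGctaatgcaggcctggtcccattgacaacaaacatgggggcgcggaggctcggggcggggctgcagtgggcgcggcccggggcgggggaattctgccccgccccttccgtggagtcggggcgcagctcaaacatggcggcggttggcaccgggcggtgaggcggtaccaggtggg
Msmo1: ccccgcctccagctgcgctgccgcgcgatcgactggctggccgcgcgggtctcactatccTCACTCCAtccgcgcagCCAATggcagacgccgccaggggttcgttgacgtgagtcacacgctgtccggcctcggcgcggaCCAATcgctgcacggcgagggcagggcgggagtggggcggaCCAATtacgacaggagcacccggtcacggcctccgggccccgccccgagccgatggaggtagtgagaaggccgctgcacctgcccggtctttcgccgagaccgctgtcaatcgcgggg
The leftmost base of the match was at -156 in Srebf2 and at -190 in Msmo1. The box CCAAT was found in 12 of the 15 synthesis promoters searched and in 17 of 24 in all, against 37.9% of promoters of tested genes (37.5% of all 33469 promoters). The Sp1 box GGGCGG was found in 13 of 15 and in 19 of 24, against 61.2% (33.1% of all promoters). The E-box TCACGTGA was found in 0 of 24 (1.73% of tested genes), and the LXR repeat, AGGTCA 2 times with 4 bases between, also in 0 of 24 (2 of all 33469 promoters).

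Among the 3 transport and storage genes, Soat1 and Scarb1 showed the largest log2 changes of the 30 genes, and Stard4 a smaller one. Soat1 encodes the enzyme of the endoplasmic reticulum that esterifies cholesterol for lipid droplets and is the main such enzyme of macrophages. It stood at 67.3 TPM in AdMSC 1 and 80.3 TPM in SyMSC 1, against 9.97 TPM in PBS 1 and 8.52 TPM in PBS 2. The lowest injected library was thus far above the highest PBS library. Means were 73.8 ± 9.24 TPM after injection and 9.25 ± 1.03 TPM with PBS (SD, n = 2 each; ratio of means 7.98; log2 change 2.87, SE 0.15, limma adjusted p = 0.000239). The call held with each library left out, with log2 changes between 2.74 and 2.99. Of the macrophage and leukocyte markers, Ptprc (2.60), Itgam (2.94), Cd68 (1.73) and Csf1r (1.30) rose in the same libraries, given as log2 changes, and Adgre1 (-0.05) did not pass. How far these markers account for Soat1 was not tested. Its paralog Soat2, of liver and gut, was below 1 TPM in all 4 libraries.

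The promoter of Soat1 (chr13:71147623-71147922, minus strand, RefSeq, GRCr8) is shown because Soat1 changed most; it held the CCAAT box 1 time, in capitals, and 2 Sp1 boxes.
Soat1: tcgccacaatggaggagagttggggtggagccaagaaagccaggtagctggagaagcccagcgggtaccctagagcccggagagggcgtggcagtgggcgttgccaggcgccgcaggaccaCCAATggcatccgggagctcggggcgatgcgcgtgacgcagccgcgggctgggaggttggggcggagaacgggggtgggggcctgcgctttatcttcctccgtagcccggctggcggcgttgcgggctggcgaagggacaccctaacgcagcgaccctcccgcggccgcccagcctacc

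Scarb1 encodes SR-BI, a receptor that exchanges cholesterol with high density lipoprotein and takes up its esters. It stood at 84.02 TPM in AdMSC 1 and 68.9 TPM in SyMSC 1, against 176.5 TPM in PBS 1 and 264 TPM in PBS 2. The injected libraries were both below both PBS libraries, and the PBS libraries differed more from each other than the injected ones did. Means were 76.5 ± 10.7 TPM after injection and 220.1 ± 61.7 TPM with PBS (SD, n = 2 each; log2 change -1.49, SE 0.22, limma adjusted p = 0.00309). The call held with each library left out, with log2 changes between -1.78 and -1.20. Endothelial markers were lower in the injected libraries, and PBS 2, which had the highest Scarb1, also had the highest adipocyte markers. Their part in the fall was not tested. Stard4, a soluble carrier that moves sterols between membranes and is a known SREBP-2 target, stood at 10.2 and 9.47 TPM in AdMSC 1 and SyMSC 1 and at 5.79 and 5.82 TPM in PBS 1 and PBS 2. The PBS libraries were nearly equal and both injected libraries lay above them (0.67, SE 0.15, limma adjusted p = 0.0132). The call of Stard4 ended without AdMSC 1 (limma adjusted p = 0.0599).

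Efflux is represented by the transporter genes Abca1 and Abcg1 and by the genes of their LXR activators. Abca1, which loads cholesterol onto lipid-poor apolipoprotein, stood at 33.9 TPM in AdMSC 1 and 38.99 TPM in SyMSC 1, against 19.7 TPM in PBS 1 and 19.8 TPM in PBS 2. Abcg1, which exports it to mature high density lipoprotein, stood at 58.4, 67.6, 32.4 and 34.6 TPM in the same order. In both, the PBS libraries were close to each other, SyMSC 1 was highest and the arms did not overlap. Abca1 rose by a ratio of means of 1.84 (log2 change 0.85, SE 0.13, limma adjusted p = 0.00368) and Abcg1 by 1.88 (0.89, SE 0.13, limma adjusted p = 0.00317), and both calls held with each library left out.

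The receptor genes did not follow the transporters. Nr1h2, for the widely expressed LXR beta, stood at 87.7 and 100.9 TPM in AdMSC 1 and SyMSC 1 and at 106 and 119 TPM in PBS 1 and PBS 2. The injected libraries lay below the PBS libraries, but the gene did not pass (-0.25, SE 0.14, limma adjusted p = 0.172). Nr1h3, for LXR alpha, stood at 47.96, 55.9, 52.1 and 83.7 TPM in AdMSC 1, SyMSC 1, PBS 1 and PBS 2. PBS 2 alone was high, the arms overlapped, and the gene did not pass (-0.35, SE 0.24, limma adjusted p = 0.27). Without PBS 1, where PBS 2 stands alone for its arm, limma called Nr1h3 lower (-0.68, adjusted p = 0.0343). The Nr1h3 locus overlaps Acp2, so its value is uncertain.

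Each injected library was also set against the PBS library of its title arm, 1 against 1 and with no test. In 19 genes both arms were higher than their PBS library (43.3% of all genes tested), in 6 both were lower (43.3%), and in 5 the arms went opposite ways. Soat1 stood at a log2 ratio of 2.64 in the Ad arm and 3.09 in the Sy arm, and Scarb1 at -1.06 and -1.92. Both were farther from 0 in the Sy arm. With the PBS libraries exchanged, AdMSC 1 and SyMSC 1 stood at -1.64 and -1.34 for Scarb1, the reverse order, and at 2.84 and 2.89 for Soat1. Sqle stood at 1.56 and 1.01, Sc5d at 0.98 and 0.48, and Mvd at 1.27 and 1.17, all farther from 0 in the Ad arm. After the exchange the order held for Sqle (1.52 and 1.04) and Sc5d (0.92 and 0.54) and reversed for Mvd (1.18 and 1.25). Abca1 stood at 0.75 and 0.94 and Srebf2 at 0.60 and 0.70. The Ad arm had the higher log2 ratio in 16 of the 18 synthesis genes, against 58.9% of all genes tested, and in 1 of the 4 efflux and LXR genes. Median log2 ratios of the synthesis genes were 0.49 in the Ad arm and 0.35 in the Sy arm, beside 0.02 and -0.02 over all genes tested.

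**Figure D3:**
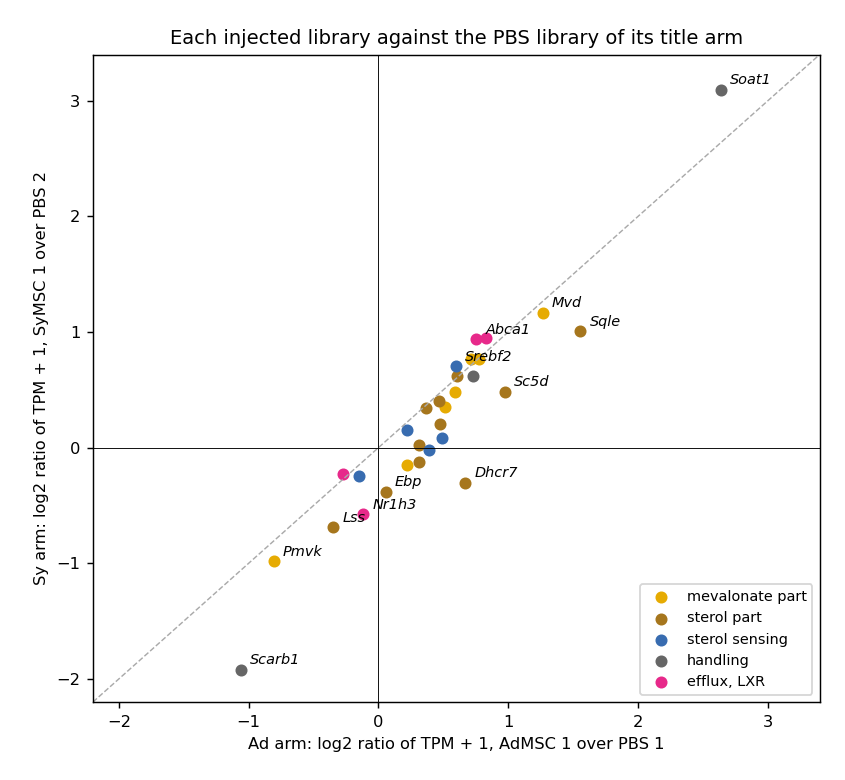
log2 ratio of TPM + 1 in the Ad arm (horizontal) and in the Sy arm (vertical) for the 30 genes, coloured by role, with a dashed line where the arms are equal. Soat1 (2.64 and 3.09) and Scarb1 (-1.06 and -1.92) lie at the ends, and Dhcr7 (0.67 and -0.30) lies farthest below the line for a gene with opposite signs.

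Between the injected libraries the synthesis and efflux genes parted. All 18 synthesis genes were higher in AdMSC 1 than in SyMSC 1, against 65.4% of all genes tested. All 4 efflux and LXR genes were higher in SyMSC 1 (34.3% of all genes). The other members were divided: Soat1, Srebf1, Srebf2 and Insig2 were higher in SyMSC 1, and Scarb1, Stard4, Insig1 and Scap in AdMSC 1. Under median-ratio or upper-quartile scaling, 16 of the 18 were higher in AdMSC 1, the exceptions being Pmvk and Mvd, against 52.7% and 57.9% of all genes, and the 4 efflux and LXR genes were still higher in SyMSC 1. The differences were small: no member reached a ratio of 2 in TPM + 1 with at least 5 TPM in the higher library, which 1.65% of all genes tested did. The largest log2 ratios of SyMSC 1 over AdMSC 1 were -0.63 for Hsd17b7, -0.57 for Dhcr7 and -0.51 for Sqle, and the highest was 0.25 for Soat1. The median was -0.30 over the synthesis genes and -0.09 over all genes tested. With 1 library in each group there is no replicate check, and the PBS libraries differed from each other by as much in several genes, with log2 ratios of PBS 2 over PBS 1 of 0.67 for Nr1h3, 0.58 for Scarb1 and 0.45 for Srebf1. PBS 1 was above PBS 2 in 9 of the 18 synthesis genes, against 54.3% of all genes tested. Fibroblast markers summed to 12468 TPM in AdMSC 1 and 8886 TPM in SyMSC 1, and lining fibroblast genes to 4263 and 2516 TPM. Neutrophil markers summed to 2057 and 3519 TPM and blood markers to 5306 and 11218 TPM in the same order. The part of these markers in this difference was not tested.

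**Figure D4:**
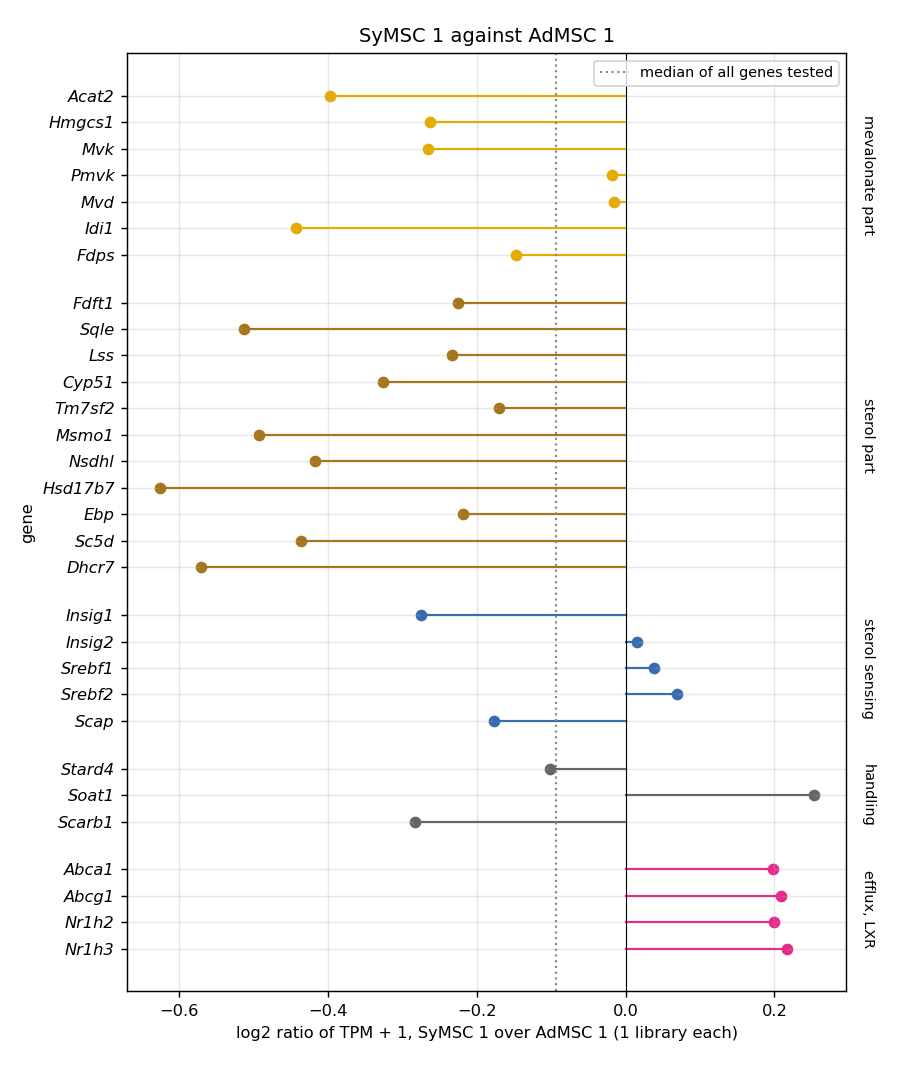
log2 ratio of TPM + 1 of SyMSC 1 over AdMSC 1 for each gene, 1 library each, coloured by role, with the median of all genes tested as a dotted line. The 18 synthesis genes lie at or below -0.02 and the 4 efflux and LXR genes between 0.20 and 0.22, and under either other scaling Pmvk and Mvd lie above 0.

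Genes around the pathway were described from further lists. Over all genes tested, 48.4% were called, 23.7% higher and 24.7% lower, and counts near those shares do not set a list apart. Of 9 genes of oxysterols and cholesterol esters, 2 rose and 4 fell, 2 did not pass and 1 was not tested (median log2 change -0.61, beside 0.00 over all genes). The median of this list was -0.08 without PBS 1, -0.22 without PBS 2 and -0.40 without SyMSC 1. Nceh1, a hydrolase of cholesterol esters, rose (1.51), and the oxysterol enzymes Cyp27a1 (-1.85) and Cyp39a1 (-1.32) fell. Cyp27a1 stood at 3.82 and 3.55 TPM in AdMSC 1 and SyMSC 1 and at 15.4 and 16.3 TPM in PBS 1 and PBS 2. Cyp39a1 stood near the floor, at 0.39, 0.49, 2.8 and 2.42 TPM in that order. It passed the filter only through the PBS libraries, as did Cyp46a1, another of the falls (0.65, 0.26, 1.49 and 1.36 TPM), so both calls are uncertain. Without PBS 1 or PBS 2, Cyp39a1 and Cyp46a1 did not reach the filter, so the medians of those settings leave both genes out. Of 15 sterol transport genes, 6 rose, 3 fell and 6 did not pass (median 0.19, or 0.12 without SyMSC 1). The mitochondrial outer membrane protein gene Tspo (1.80) and the sterol transfer protein gene Gramd1b (1.31) rose, and the caveolin gene Cav1 (-2.38), abundant in endothelium, fibroblasts and fat, fell. Of 9 matched lipoprotein receptor genes, 3 rose, 2 fell and 4 did not pass (median 0.11). The receptors of modified lipoproteins Olr1 (2.82) and Msr1 (2.51) rose. Olr1 stood at 36.4 and 41.1 TPM after injection and 4.88 and 4.38 TPM with PBS. Cd36, a fatty acid and lipoprotein receptor of macrophages, fat and endothelium, fell (-1.33, limma adjusted p = 0.019), a call that ended without AdMSC 1 (0.13) or SyMSC 1 (0.0772). That list had 2 rises without AdMSC 1 or PBS 2. Its falls numbered 0 without SyMSC 1 and 1 without AdMSC 1, PBS 1 or PBS 2. Its median was -0.22 without SyMSC 1, -0.06 without PBS 1, 0.21 without PBS 2 and 0.06 under upper-quartile scaling.

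Of 13 matched LXR target and lipoprotein remodelling genes, 5 rose, 3 fell, 2 did not pass and 3 were below the filter (median 0.82). Angptl4, an inhibitor of lipoprotein lipase that is also induced by low oxygen, stood at 120.1 and 189 TPM in AdMSC 1 and SyMSC 1 and at 9.86 and 22.9 TPM in PBS 1 and PBS 2 (3.23, limma adjusted p = 0.0107). Its call ended without AdMSC 1 (0.074) or SyMSC 1 (0.101). Abcg4 (-1.96), a transporter related to Abcg1, and Lcat (-1.85), which esterifies cholesterol in lipoproteins, fell. The list had 3 rises and a median of 0.45 without SyMSC 1, and a median of 0.23 with no filter on low values. Of 11 matched genes of SREBP processing and turnover, 4 rose, 1 fell and 6 did not pass (median 0.32). Mbtps1, the protease that makes the first cut in SREBPs, fell (-0.80); Ube2g2 (0.57) and Erlin1 (0.50), which act in the breakdown of sterol sensing proteins, rose. Ube2g2 was lost without PBS 1 (limma adjusted p = 0.0895), and Erlin1 without AdMSC 1 (0.0947), PBS 1 (0.108) or PBS 2 (0.0844). The rises of this list numbered 1 without AdMSC 1 or PBS 2 and 0 without PBS 1.

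Of 16 fatty acid synthesis genes, 1 rose, 4 fell, 8 did not pass and 3 were below the filter (median -0.35, or -0.56 without PBS 1 and -0.54 without AdMSC 1). The desaturase genes Fads2 (-1.43) and Fads1 (-1.02) and the acetyl-CoA synthetase gene Acss2 (-0.79) fell, and these calls held with each library left out. With any 1 library left out, or under upper-quartile scaling, the list had 0 rises, and without PBS 1 it had 6 falls. The summed level of the list was 235 and 228 TPM in AdMSC 1 and SyMSC 1, 311 TPM in PBS 1 and 499 TPM in PBS 2, the library with the most adipocyte transcript. Of 12 genes that use isoprenoids, 1 rose, 0 fell and 11 did not pass (median 0.05, from 0.02 to 0.21 with a library left out and -0.0038 under upper-quartile scaling). Icmt, which methylates prenylated proteins, stood at 0.46 (limma adjusted p = 0.0417) and lost its call without PBS 1 (0.163), AdMSC 1 (0.158), PBS 2 (0.109) or SyMSC 1 (0.0679), with no filter (0.0572) and with the title arm as a block (0.056). Zmpste24 (-0.01) and the farnesyltransferase subunit gene Fnta (0.02) did not pass.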

How the data were processed

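The authors deposited TPM values of 4 libraries in 1 table; per the file headers the unit is TPM, and each column has the same sum over the 17899 rat genes. Per the labels' protocols, messenger RNA was taken up on oligo-dT beads, dUTP marked the second strand and sequencing was by BGISEQ-500. Per the submitters' processing notes, the tool HISAT2 2.0.4 and the build Rnor_6.0 are named without a role. The counting tool, whether counting used strand and how human and rat reads were told apart were not given in the sources used here. Because TPM holds no depth, the precision of low values is unknown, and because it is a share, higher levels of abundant genes lower the rest.

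Columns were matched to samples by title, and groups were taken from the treatment label. No sample column was left unused (0). Of 10 rows with a repeated symbol, the one with the higher mean kept it. Values were taken as log2(TPM + 1), a scale that understates the change of low genes. The 13371 genes that reached 1 TPM in 2 or more libraries entered limma 3.58.1 (R 4.3.3; eBayes with trend and robust), injected against PBS, with Benjamini-Hochberg adjustment over all of them and residual degrees of freedom of 2. Calls were made below an adjusted p of 0.05. With 1 library left out, 1 residual degree of freedom remained and the lone library was assumed to vary like the others. The limma script was tested on simulated data. Values are mean ± SD over n = 2 libraries.

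The members and lists were chosen with earlier results of these data known. All 30 members were named. From each other list, up to 3 genes were named, the called ones by size of change, then the most abundant. Promoters were RefSeq sequences of build GRCr8, matched by gene ID (24 of 30 members), and overlapping loci were read from the RefSeq gene table of that build, in which all 30 IDs were found; no coordinates were carried between builds. Figures were drawn with matplotlib 3.10.9. Alternatives were other scalings, no filter, each library left out, a pseudocount of 0.1 and a block for the title arm.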

Additional observations from a re-analysis of the deposited data

Results flagged for a closer look

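In 5 members the injected library was above its PBS library in the Ad arm and below it in the Sy arm. With 1 library against 1 in each arm, these differences were not tested. They depend on the titles' pairing: with the PBS libraries exchanged, only Mvk among these members still went opposite ways. The log2 ratio in the Ad arm exceeded that in the Sy arm by 0.97 in Dhcr7, by 0.44 in Ebp, by 0.43 in Tm7sf2, by 0.41 in Insig1 and by 0.37 in Mvk. In Dhcr7 the levels were 14.8 TPM in AdMSC 1 and 9.67 in SyMSC 1, against 8.96 in PBS 1 and 12.2 in PBS 2, so both the injected and the PBS libraries differed between the arms. None of the 5 genes was called in the pooled comparison. Over all genes tested, 43.3% were above the PBS library in both arms and 43.3% below it in both. The rest went opposite ways or were equal in an arm.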

How the results depend on the processing

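Of the 15 members called by limma, 8 kept their call under all 9 alternatives of the injected against PBS test: Pmvk, Mvd, Sqle, Srebf2, Soat1, Scarb1, Abca1 and Abcg1. The other 7 lost it with at least 1 library left out. With a library left out, members called higher numbered 7 to 11 (12 with all libraries), members called lower 2 to 3 (3), all genes called 4286 to 5234 (6476) and genes of the other lists called 27 to 32 (39). Fewer samples leave 1 residual degree of freedom.

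Among the members, direction changed in 4 genes, none of which had passed. Mvk stood at -0.014 under upper-quartile scaling. With a library left out, log2 changes lay between -0.097 and 0.168 for Mvk, -0.037 (without PBS 1) and 0.225 for Tm7sf2, -0.042 (without AdMSC 1) and 0.375 for Nsdhl, and -0.102 and 0.468 for Dhcr7. Mvk and Dhcr7 were below 0 without AdMSC 1 or PBS 1. The sterol regulatory element was found in 0 promoters with 9 letters and in 2 with the 8 letters TCACNCCA.

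With the title arm as a replicate block, 13 members were called higher and 2 lower, and 6590 genes in all. The labels do not say what the titles' shared word marks, so the libraries were not treated as paired. The deviations of same-titled libraries correlated at 0.12 over genes. That single value cannot decide whether they are pairs, since its sign turns when the PBS libraries are exchanged. Exchanging the PBS libraries left 25 members with the same direction in both arms, as with the titles' pairing, but not the same ones. Dhcr7, Ebp, Tm7sf2 and Insig1 then had the same direction in both arms, and Msmo1, Nsdhl, Hsd17b7 and Nr1h3 went opposite ways. Median-ratio scaling moved the median log2 change of all genes by 0.04 and upper-quartile scaling by -0.05. The split of calls was 3545 higher and 3227 lower under the first, and 2971 and 3656 under the second. The depth of the libraries is unknown, which limits most the lowest genes, such as Tm7sf2 and Acat2.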
